A study of Mus musculus with 9 samples.

Results

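The mouse mitochondrial genome is a small circular DNA, carried in many copies by each mitochondrion, with 37 annotated genes. They comprise 13 mRNAs, 2 rRNAs and 22 tRNAs. All of them were taken from a table of 55335 genes as the rows whose Ensembl identifier maps to a symbol beginning with mt-, without any filter on level. The RNA came from the substantia nigra, a part of the midbrain whose dopaminergic neurons die in Parkinson disease, and was sequenced in 3 groups of 3 libraries. MPTP + PE mice received MPTP-HCl intraperitoneally at 20 mg/kg, 2 injections a week for 5 weeks, and ran voluntarily on a wheel for 2 months after the first injection. MPTP mice received the same injections without the running. Vehicle mice received saline on the same schedule. Strain, sex and age are not among the labels used here. The design speaks of 3 mice in each group, which implies 1 mouse per library without stating it, so the p-values measure how far these libraries differ from each other.

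Both strands of mitochondrial DNA are transcribed into long precursors, in which tRNAs separate most mRNAs and rRNAs. Enzymes cut the tRNAs out, and the released mRNAs are polyadenylated inside the organelle. The 13 mRNAs encode core subunits of respiratory complexes I, III and IV and of ATP synthase, the rRNAs form the mitochondrial ribosome, and the tRNAs serve its translation, while all other subunits come from nuclear genes. In the brain these complexes supply most of the ATP that neurons use, and MPTP is converted in the brain to a toxin that inhibits complex I.

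The sequences below are those on which the values turn: 2 places where mRNAs overlap, the ends of 3 mRNAs that lack a full stop codon, a base that separates a gene from its nuclear copy, and tRNAs at the top, at the bottom and with the most uneven values. They are from GENCODE M21 on build GRCm38, each 5′ to 3′ on the gene's own strand. mt-Atp8 and mt-Atp6, 2 subunits of ATP synthase, are read from 1 mRNA in different frames and share 43 bases, shown in capitals (chrM:7907-7989, plus strand).
mt-Atp8/mt-Atp6 junction: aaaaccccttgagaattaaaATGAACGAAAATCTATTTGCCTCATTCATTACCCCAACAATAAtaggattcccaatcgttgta
mt-Nd4l and mt-Nd4, 2 membrane subunits of complex I, share 7 bases in the same way (chrM:10147-10193, plus strand), with the shared bases in capitals.
mt-Nd4l/mt-Nd4 junction: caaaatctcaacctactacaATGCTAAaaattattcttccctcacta

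The annotated ends of mt-Co3 (chrM:9373-9390), mt-Nd4 (chrM:11527-11544) and mt-Cytb (chrM:15271-15288) stop after a single T, in capitals, which polyadenylation completes to a stop codon. The end of mt-Co1 (chrM:6855-6872), with a whole stop codon in capitals, is shown for contrast, as in 10 of the 13 mRNAs.
mt-Co3 3′ end: tttattgatgaggatctT
mt-Nd4 3′ end: ttacaggcctgacaataT
mt-Cytb 3′ end: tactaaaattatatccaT
mt-Co1 3′ end: tatgtaaaagtaaaaTAA

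The start of mt-Nd3 (chrM:9459-9476, plus strand) differs from its nuclear copy Gm28438 (chr1:24613102-24613119, minus strand) by T3C, counted from the first base of mt-Nd3, and the differing base is in capitals.
mt-Nd3 start: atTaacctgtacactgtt
Gm28438 start: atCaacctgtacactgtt

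Of the tRNAs, the capitals mark the anticodon. mt-Te (glutamate, chrM:14071-14139, minus strand) and mt-Tl1 (leucine, chrM:2676-2750, plus strand) had the highest levels. mt-Ts1 (serine, chrM:6870-6938, minus strand) and mt-Ts2 (serine, chrM:11613-11671, plus strand) had the lowest. mt-Th (histidine, chrM:11546-11612, plus strand) was the most uneven between libraries after mt-Ts2. mt-Tg (glycine, chrM:9391-9458, plus strand), which lies directly between mt-Co3 and mt-Nd3, had the smallest p-value of the 37 genes against vehicle.
mt-Te: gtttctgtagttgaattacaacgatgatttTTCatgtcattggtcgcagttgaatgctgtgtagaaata
mt-Tl1: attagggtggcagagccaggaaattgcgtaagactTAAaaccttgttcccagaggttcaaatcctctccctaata
mt-Ts1: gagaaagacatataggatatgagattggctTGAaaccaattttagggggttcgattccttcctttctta
mt-Ts2: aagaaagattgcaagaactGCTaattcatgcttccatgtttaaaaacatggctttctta
mt-Th: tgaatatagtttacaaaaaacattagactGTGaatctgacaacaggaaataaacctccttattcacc
mt-Tg: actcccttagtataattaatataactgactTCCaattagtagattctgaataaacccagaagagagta

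Levels are in FPKM as the authors computed them, that is, a gene's fragments divided by its length and by the total of the library. From the steps between low values, the libraries held an estimated 22390000 to 26950000 fragments. Values are given for the libraries of a group in the order of their label numbers. FPKM summed over all genes differed between the groups, at 331121 to 344049 in MPTP + PE, 326614 to 347524 in MPTP and 318416 to 319431 in vehicle libraries. The sum was thus lowest in the vehicle group, without overlap with the other 2 groups, and this touches every comparison of levels below. In tissue, fewer cells of a type and less RNA per cell cannot be told apart. The 9 listed dopaminergic markers were uneven, with sums of 48.9 to 73.7 FPKM in MPTP + PE, 43.9 to 88.7 in MPTP and 49.0 to 73.2 in vehicle libraries. Aldh1a1 alone made 22.1 to 46.8 FPKM of these sums, and 2 of the 9 averaged under 0.5 FPKM. Slc6a3 had 0.149, 0 and 10.6 FPKM in MPTP + PE, 2.75, 0.0377 and 14.4 in MPTP and 3.40, 1.41 and 10.8 in vehicle libraries. Of the 7 markers that were tested, 5 had a positive log2 fold change for MPTP + PE over vehicle and 4 for MPTP over vehicle. Th, the enzyme that starts dopamine synthesis, averaged 4.90 ± 2.06 FPKM in MPTP + PE, 6.68 ± 5.45 in MPTP and 7.97 ± 6.75 in vehicle libraries (SD, n = 3 each), while Ddc, the next enzyme, averaged 8.27 ± 1.92 FPKM in MPTP + PE, 7.33 ± 4.74 in MPTP and 6.34 ± 2.61 in vehicle libraries. Th was lowest in MPTP 2 (1.64 FPKM) and MPTP + PE 1 (2.66 FPKM), the libraries described below as low in mt-Atp6. Ddc had 2.48 and 6.39 FPKM there, the second value above 2 vehicle libraries, and a link was not tested.

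The 37 genes took 30.7%, 31.8% and 30.5% of the FPKM in MPTP + PE libraries, 32.0%, 30.2% and 31.0% in MPTP libraries and 29.8%, 30.8% and 30.5% in vehicle libraries. The groups overlapped in every pair. The difference was −0.0640 percentage points for MPTP + PE minus MPTP (exact two-sided permutation p = 1), 0.617 for MPTP + PE minus vehicle (exact p = 0.5) and 0.681 for MPTP minus vehicle (exact p = 0.4). The 3 comparisons belong to a family of 15 (5 shares in 3 pairs of groups), in which each of these p was 1 after Benjamini-Hochberg adjustment. With 3 libraries against 3 the smallest p that the 20 splits allow is 0.1. Weighted by gene length, the 37 genes held 9.35% to 10.1% of the fragments in MPTP + PE, 9.47% to 10.1% in MPTP and 8.92% to 9.17% in vehicle libraries. By that measure both groups given MPTP lay above the vehicle group without overlap. With mt-Atp6 left out of the sums, the share of FPKM was 28.55% to 30.35% in MPTP + PE, 29.01% to 29.99% in MPTP and 28.16% to 28.93% in vehicle libraries. MPTP then lay above vehicle by a narrow margin, and MPTP + PE overlapped with vehicle.

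**Figure D1:**
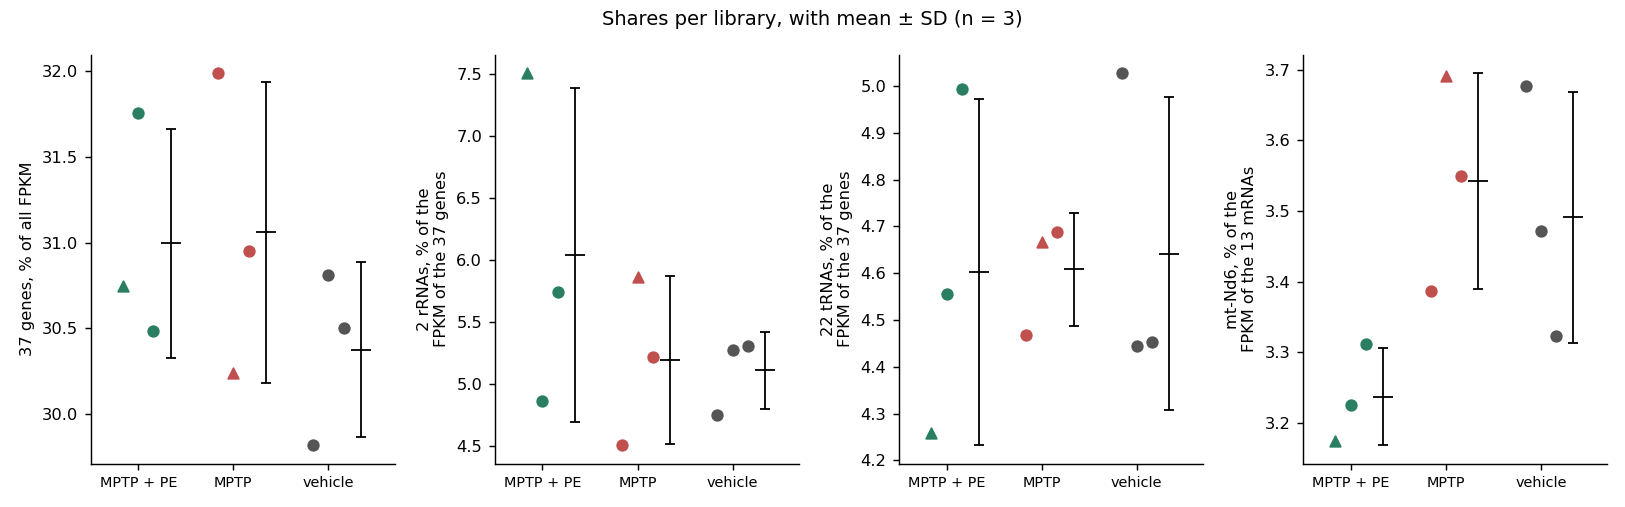
Shares in each library (points) with the mean ± SD of the group (bars, n = 3), from left to right for the 37 genes as a percentage of all FPKM, the 2 rRNAs and the 22 tRNAs as percentages of the FPKM of the 37 genes, and mt-Nd6 as a percentage of the FPKM of the 13 mRNAs. Axes do not start at 0, triangles are MPTP library 2 and MPTP + PE library 1, and only for mt-Nd6 do the MPTP + PE libraries (3.17% to 3.31%) lie apart from both other groups.

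The mRNAs stood in nearly the same order in every library. mt-Co1, the catalytic core of complex IV, averaged 18911 ± 1482 FPKM over the 9 libraries (SD) and was the most abundant of all 55335 genes in each of them. It lay above mt-Atp8 (10774 ± 1116 FPKM) in 9 of 9 libraries, without overlap. mt-Cytb, the mitochondrial subunit of complex III, averaged 8998 ± 503 FPKM and lay below mt-Atp8 and above mt-Nd1 (8291 ± 575 FPKM) in 9 of 9 libraries. mt-Co3 (7539 ± 1041 FPKM) and mt-Atp6 (7249 ± 3086 FPKM) were not separated, since mt-Co3 was the higher in 2 of 9 libraries. mt-Co2, which takes electrons from cytochrome c, averaged 6853 ± 412 FPKM and lay clear of the next gene, mt-Nd2.

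The remaining mRNAs encode complex I subunits. mt-Nd2 averaged 5430 ± 222, mt-Nd4 5178 ± 290 and mt-Nd4l 4401 ± 303 FPKM, and their ranges overlapped from one to the next. mt-Nd5 (3819 ± 217 FPKM) was above mt-Nd6 (3142 ± 180 FPKM) in 8 of 9 libraries, with MPTP library 2 the exception. mt-Nd3 was the lowest mRNA in all 9 libraries, at 1248 ± 186 FPKM, and still ranked 21 or 22 among all genes. The coefficient of variation over the 9 libraries was 4.09% for mt-Nd2 and 14.9% for mt-Nd3, and only mt-Atp6, at 42.6%, exceeded that range among the 13.

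**Figure D2:**
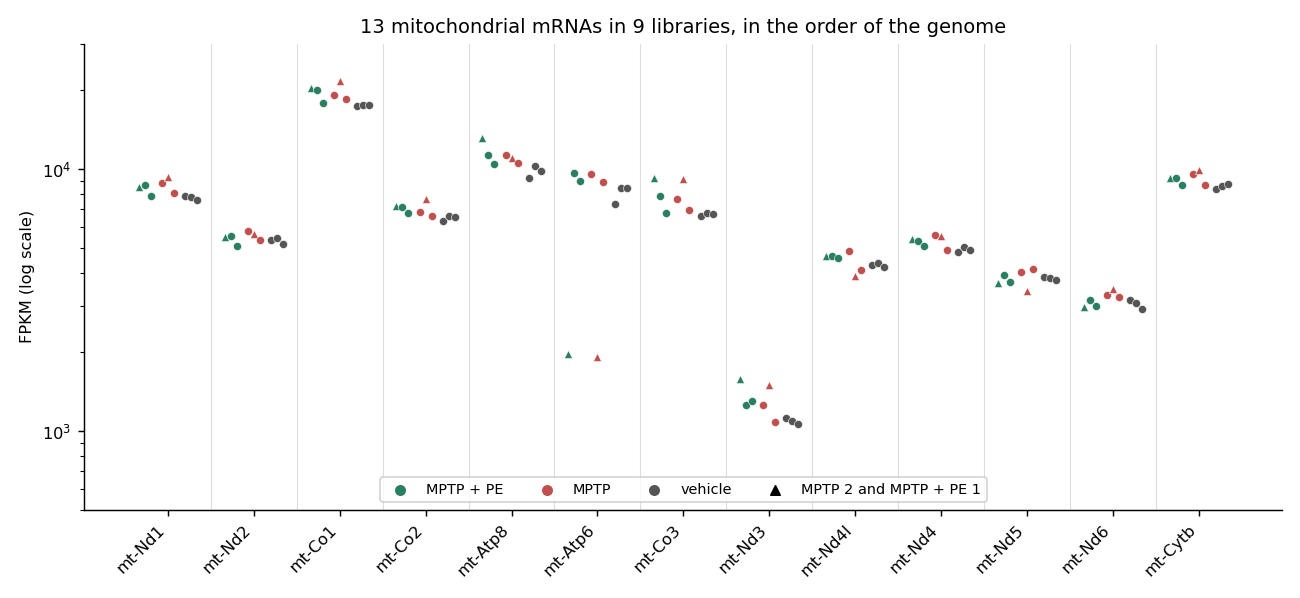
FPKM of the 13 mRNAs (log axis) in each of the 9 libraries, in genome order, with the MPTP + PE, MPTP and vehicle groups from left to right within each gene. Triangles mark MPTP library 2 and MPTP + PE library 1, the 2 libraries in which mt-Atp6 lay at 1905 and 1964 FPKM against 7369 to 9616 in the other 7.

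mt-Atp6 had 1964, 9616 and 8974 FPKM in MPTP + PE libraries, 9552, 1905 and 8944 FPKM in MPTP libraries and 7369, 8444 and 8476 FPKM in vehicle libraries. One library of each group given MPTP was low, MPTP + PE 1 and MPTP 2, and the other 4 of those groups were above every vehicle library. mt-Atp8, on the same mRNA, was not low in these 2 libraries: it had 13112, 11263 and 10423 FPKM in MPTP + PE, 11350, 11047 and 10502 FPKM in MPTP and 9208, 10253 and 9812 FPKM in vehicle libraries. mt-Co3, which follows mt-Atp6, had its highest values there, 9245 FPKM in MPTP + PE 1 and 9158 FPKM in MPTP 2. mt-Atp6 accordingly made 13.03% of the FPKM of mt-Atp6 plus mt-Atp8 in MPTP + PE 1 and 14.7% in MPTP 2, against 44.5% to 46.3% in the other 7 libraries. Its log2 fold change was −0.57 (SE 0.73, limma adjusted p = 0.991) for MPTP over vehicle and −0.55 (SE 0.73, limma adjusted p = 0.875) for MPTP + PE over vehicle. Without the 2 libraries these became 0.19 and 0.20, so that both signs rest on them.

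The low mt-Atp6 values had a counterpart in a nuclear copy. Stretches of mitochondrial DNA have been inserted into nuclear chromosomes in evolution, and 11 annotated genes of the table matched a mitochondrial gene at 95% identity or more over at least 200 bases. Of these, 7 unprocessed pseudogenes lie side by side on the minus strand of chromosome 1 (chr1:24611535-24616197, GRCm38) and each had over 100 FPKM in the deposited table. They follow mt-Co1 (its last part), mt-Co2, mt-Atp6, mt-Co3, mt-Nd3, mt-Nd4l and mt-Nd4 (its first part), in the order of the mitochondrial genome. Fragments from a gene and its identical copy cannot be told apart by sequence, and how fragments with several matches were counted is not given in the sources used here. The levels of these 7 mRNAs are therefore uncertain to that extent.

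Gm28661 had 1.0046 to 1.0053 times the FPKM of mt-Co2 in the 9 libraries, and Gm28437 had 0.9998 to 1.0018 times that of mt-Co3. Gm10222 lay at 1.001 to 1.003 times mt-Nd4l. Gm28438, which carries the single difference T3C, lay at 0.925 to 0.966 times mt-Nd3. The partial copies Gm29216 and Gm28439 lay at 0.422 to 0.488 times mt-Co1 and 0.551 to 0.617 times mt-Nd4. The ratios of Gm28661, Gm28437 and Gm10222 hardly moved between libraries or groups. For both partial copies MPTP 2 was the extreme library. Gm29216 lay there at 0.488, against 0.422 to 0.460 elsewhere, and Gm28439 at 0.551, against 0.574 to 0.617 elsewhere. Gm10925, whose 678 bases are identical to mt-Atp6, lay at 1.08 to 1.16 times mt-Atp6 in 7 libraries, but at 6.03 times in MPTP + PE 1 and 5.86 times in MPTP 2.

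Gm10925 itself was highest in those 2 libraries, at 11849 FPKM in MPTP + PE 1 and 11161 FPKM in MPTP 2. The sum of mt-Atp6 and Gm10925 was 13813, 20124 and 18638 FPKM in MPTP + PE, 19938, 13066 and 18596 FPKM in MPTP and 15937, 17613 and 17627 FPKM in vehicle libraries. The 2 libraries remained the lowest of the 9 in that sum. Together the 7 copies held 12.1% to 13.6% of the FPKM in MPTP + PE, 11.99% to 13.5% in MPTP and 11.8% to 12.2% in vehicle libraries. Besides the partial copies, a further, smaller irregularity of MPTP 2 was at the other overlapping pair, where mt-Nd4l over mt-Nd4 was 0.7002, against 0.836 to 0.900 in the other 8 libraries.

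**Figure D3:**
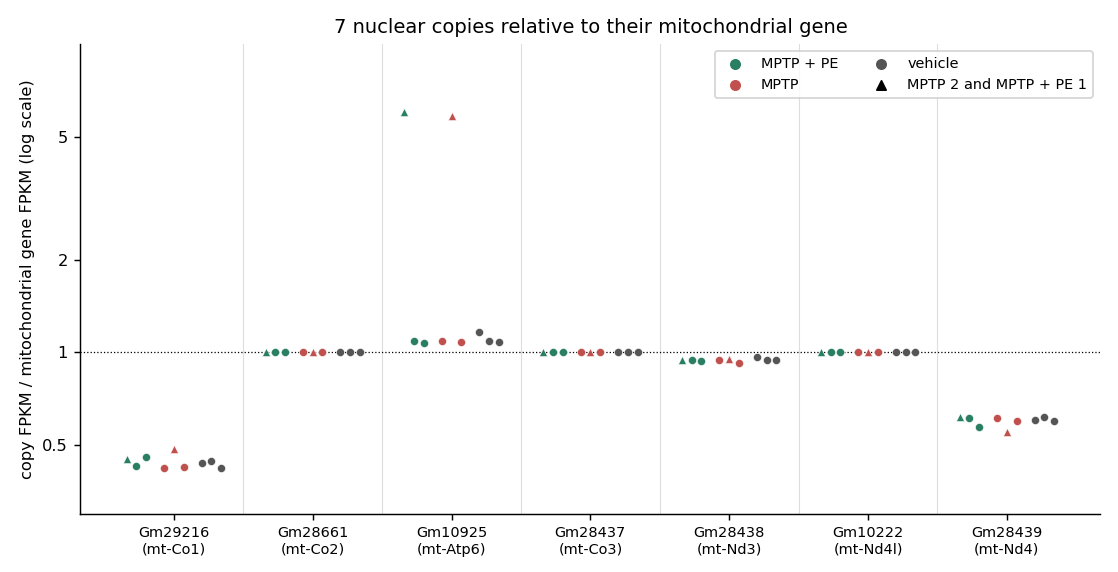
FPKM of each of the 7 nuclear copies on chromosome 1 divided by the FPKM of its mitochondrial gene (log axis), per library, with MPTP + PE, MPTP and vehicle from left to right. The ratio of Gm10925 to mt-Atp6 is 6.03 and 5.86 in the 2 libraries drawn as triangles and 1.08 to 1.16 in the rest.

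The libraries were enriched for mRNA on magnetic beads, so the rRNA levels are those left after that step. mt-Rnr1, the small-subunit rRNA, had 3984, 2543 and 2795 FPKM in MPTP + PE, 2345, 3114 and 2585 FPKM in MPTP and 2100, 2629 and 2473 FPKM in vehicle libraries. mt-Rnr2, the large-subunit rRNA, had 3959, 2715 and 3004 FPKM in MPTP + PE, 2501, 3049 and 2695 FPKM in MPTP and 2422, 2561 and 2684 FPKM in vehicle libraries. Both were highest in MPTP + PE 1, next highest in MPTP 2 and lowest in vehicle 1, and mt-Rnr2 in MPTP + PE lay above every vehicle library.

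For MPTP + PE over vehicle the log2 fold change was 0.35 (SE 0.18, limma adjusted p = 0.754) for mt-Rnr1 and 0.32 (SE 0.14, limma adjusted p = 0.753) for mt-Rnr2. Without MPTP + PE 1 both were 0.16. The share of the 2 rRNAs in mitochondrial FPKM was 6.04% ± 1.34 in MPTP + PE, 5.20% ± 0.678 in MPTP and 5.11% ± 0.312 in vehicle libraries (SD, n = 3 each). Its exact permutation p was 0.5 for MPTP + PE against MPTP, 0.3 for MPTP + PE against vehicle and 1 for MPTP against vehicle, all with an adjusted p of 1. Without MPTP + PE 1 the share differed by 0.108 percentage points for MPTP + PE minus MPTP and by 0.195 for MPTP + PE minus vehicle, so most of both differences came from that library. Cytosolic rRNA and related transcripts that escaped enrichment, a list of 10 genes of which 1 was at 0 in all libraries, summed to 373 to 1107 FPKM in MPTP + PE, 412 to 1060 in MPTP and 251 to 706 in vehicle libraries. AY036118 alone made 241 to 1080 FPKM of these sums, so they mostly follow that 1 gene. The highest sum was in MPTP + PE 1. MPTP 1, with the lowest mt-Rnr1 and mt-Rnr2 of its group, had 1060 FPKM. MPTP 2, next highest in both rRNAs, had 412 FPKM. The part of this carryover in the mitochondrial rRNA values was not tested.

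The tRNAs are 59 to 75 bases long, and fragments of uncut precursors and of free tRNAs cannot be told apart here. Their levels differed widely within each library. mt-Te averaged 1006 ± 67.3 FPKM and was the highest tRNA in 9 of 9 libraries. It was followed by mt-Tl1 at 810 ± 122, mt-Tn (asparagine) at 602 ± 49.1 and mt-Tc (cysteine) at 530 ± 43.3 FPKM, each above the next in 9 of 9 libraries. mt-Ty (tyrosine), mt-Ta (alanine), mt-Tm (methionine), mt-Tp (proline) and mt-Tw (tryptophan) averaged 322, 293, 285, 219 and 146 FPKM. The other 13 averaged at most 72.6 FPKM, and 11 of them lay between 22.6 and 72.6 FPKM with overlapping ranges. Among these, mt-Tr (72.6 FPKM), mt-Tt (56.2), mt-Ti (48.4), mt-Tq (43.7) and mt-Tf (32.7) overlapped in every pair of groups.

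The 8 tRNAs on the minus strand, by convention the light strand, had a median of 307 FPKM, and 6 of them averaged at least 100 FPKM. The 14 on the plus strand had a median of 47.3 FPKM, and 3 averaged at least 100. Whether the counting used strand is not given in the sources used here, so fragments of a light-strand tRNA and of RNA from the opposite strand cannot be told apart. mt-Tn, mt-Tc, mt-Ty and mt-Ta, 4 of the 6, are neighbours in one block.

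mt-Ts1 averaged 1.63 ± 0.408 FPKM, or an estimated 1.6 to 3.7 fragments in a library, and its differences are not measurable at this depth. mt-Ts2 had 0.0787, 14.1 and 0.188 FPKM in MPTP + PE, 0.208, 0.133 and 0.165 FPKM in MPTP and 0.157, 0.114 and 0.167 FPKM in vehicle libraries. By the same estimate, from FPKM, length and depth, it was above 1 fragment only in MPTP + PE 2, at 18.9 fragments. Elsewhere the estimate was under 1 fragment with FPKM above 0, so it is not a count. mt-Ts2 entered the test through MPTP + PE 2. mt-Th, its neighbour, had 17.99, 23.2 and 62.6 FPKM in MPTP + PE, 73.2, 24.6 and 27.0 FPKM in MPTP and 20.9, 26.5 and 21.9 FPKM in vehicle libraries. It was high in MPTP 1 and MPTP + PE 3 and within a narrow range in the other 7. mt-Tl2 (leucine), on the far side of mt-Ts2, was highest in the same 2 libraries, at 44.2 FPKM in MPTP 1 and 43.8 FPKM in MPTP + PE 3, against 23.7 to 30.7 FPKM in the rest.

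**Figure D4:**
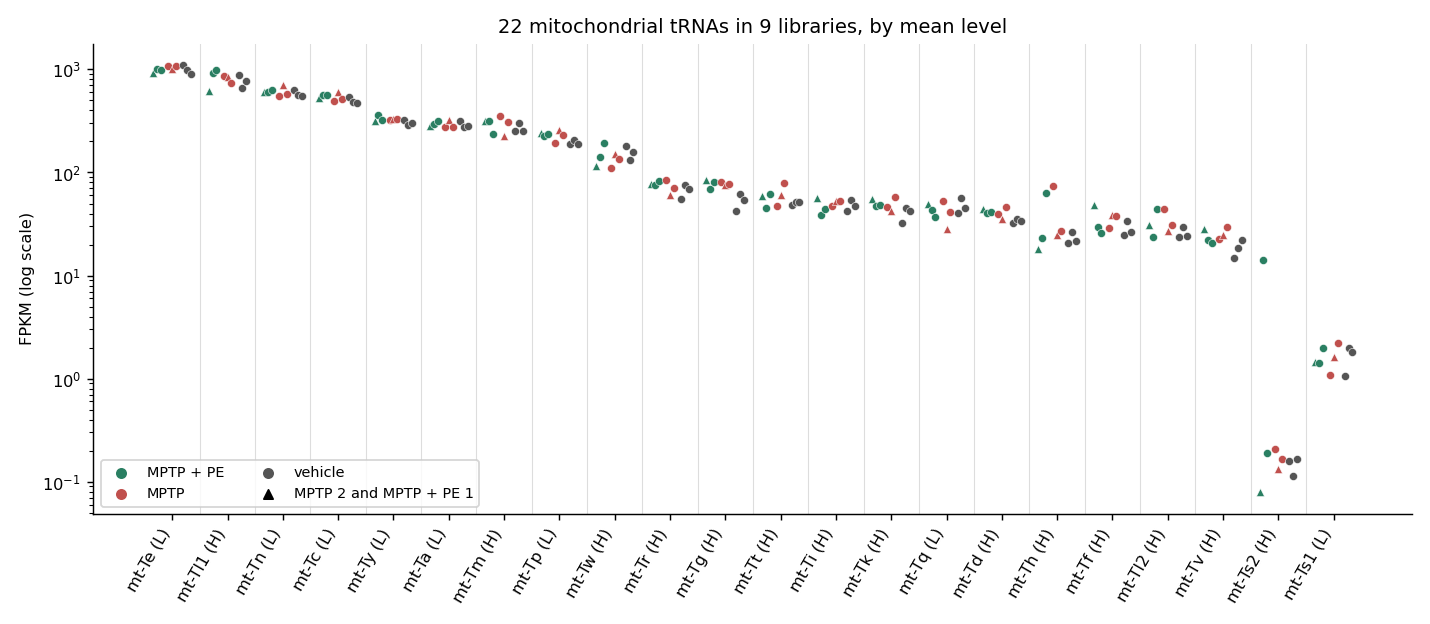
FPKM of the 22 tRNAs (log axis) in each of the 9 libraries, ordered by mean level, with MPTP + PE, MPTP and vehicle from left to right within each gene. H and L mark plus-strand (heavy) and minus-strand (light) genes, triangles are MPTP library 2 and MPTP + PE library 1, and the isolated points are mt-Ts2 in MPTP + PE 2 (14.1 FPKM) and mt-Th in MPTP 1 and MPTP + PE 3 (73.2 and 62.6 FPKM).

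The comparison of MPTP with vehicle asks how the toxin changed the tissue. No mitochondrial gene passed the test. In limma over the 15997 genes that averaged 0.5 FPKM or more, a filter that all 37 passed, 0 of 37 genes had an adjusted p under 0.05 (0.0125% of all genes tested did), and the lowest was 0.768. Levels were nonetheless mostly higher in the MPTP libraries: 33 of 37 genes had a positive log2 fold change, with a median of 0.12, against 48.1% and a median of −0.01 over all genes tested. The groups did not overlap for 9 of the 37 genes, all higher in MPTP, where 9.43% of all genes tested did not overlap (5.2% higher and 4.23% lower). At an unadjusted p under 0.05 there were 3 genes, all tRNAs (mt-Tg, mt-Tv and mt-Td), against 4.09% of all genes (2.61% higher and 1.48% lower).

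The 37 genes share libraries and a common scale, so they are not independent of each other. When each library was rescaled to the same FPKM sum, the groups did not overlap for 4 of the 37 (mt-Nd1, mt-Co1, mt-Co3 and mt-Tg, all higher in MPTP), against 2.65% of all genes higher and 8.65% lower. The median over the 13 mRNAs was 0.12 as deposited and 0.05 after that rescaling, beside −0.01 and −0.07 over all genes. After rescaling, 27 of the 37 genes had a positive log2 fold change.

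mt-Tg had 80.6, 75.7 and 76.9 FPKM in MPTP and 42.1, 61.5 and 54.1 FPKM in vehicle libraries. All 3 MPTP libraries were above all 3 vehicle libraries, and the log2 fold change was 0.57 (SE 0.14, limma adjusted p = 0.768). mt-Co1 had 19168, 21604 and 18541 FPKM in MPTP and 17454, 17512 and 17615 FPKM in vehicle libraries, a log2 fold change of 0.17 (SE 0.09, limma adjusted p = 0.991). The 3 vehicle libraries lay close together, while the MPTP libraries spanned a much wider range, and without MPTP 2 the log2 fold change was 0.11.

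mt-Nd1, the complex I subunit next to the quinone site, had 8811, 9322 and 8078 FPKM in MPTP and 7852, 7823 and 7628 FPKM in vehicle libraries, a log2 fold change of 0.17 (SE 0.09). mt-Co3, a structural core subunit of complex IV, had 7684, 9158 and 6956 FPKM in MPTP and 6623, 6763 and 6730 FPKM in vehicle libraries, a log2 fold change of 0.23 (SE 0.14), which was 0.12 without MPTP 2. mt-Atp8 (0.17, SE 0.10), mt-Nd6 (0.13, SE 0.08), mt-Ty (0.11, SE 0.08), mt-Td (aspartate, 0.25, SE 0.10) and mt-Tv (valine, 0.46, SE 0.17) complete the 9, with mt-Td at 0.16 without MPTP 3. For these 8 genes other than mt-Tg the limma adjusted p was 0.991.

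The comparison of MPTP + PE with MPTP asks what running added in mice given the toxin. The mitochondrial genes again gave no call: 0 of 37 had an adjusted p under 0.05 (0% of all genes tested did), and 0 had an unadjusted p under 0.05, against 3.99% of all genes (1.11% higher and 2.89% lower). The signs were mixed, with 22 genes positive and 15 negative and a median log2 fold change of 0.01, against 45.7% positive and a median of −0.01 over all genes. The groups did not overlap for 1 of the 37, mt-Nd6, which was lower in MPTP + PE, against 8.02% of all genes tested (2.66% higher and 5.36% lower).

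mt-Nd6, a complex I subunit and the only mRNA on the light strand, had 2963, 3156 and 2984 FPKM in MPTP + PE libraries, 3313, 3471 and 3233 FPKM in MPTP libraries and 3157, 3085 and 2913 FPKM in vehicle libraries. Every MPTP + PE library was below every MPTP library, and the MPTP + PE and vehicle groups overlapped. The log2 fold change for MPTP + PE over MPTP was −0.14 (SE 0.08, limma adjusted p = 0.9999), and mt-Nd6 remained the only gene of the 37 apart in this comparison after rescaling to the same FPKM sum.

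As a share of the FPKM of the 13 mRNAs, mt-Nd6 made 3.17%, 3.23% and 3.31% in MPTP + PE, 3.39%, 3.69% and 3.55% in MPTP and 3.68%, 3.47% and 3.32% in vehicle libraries. The MPTP + PE libraries were below all others. The difference was −0.305 percentage points against MPTP and −0.254 against vehicle, each with an exact permutation p of 0.1, the smallest possible, and an adjusted p of 0.75. With mt-Atp6 left out of the sum, the share was 3.50% ± 0.228 in MPTP + PE, 3.82% ± 0.102 in MPTP and 3.85% ± 0.172 in vehicle libraries, and the MPTP + PE libraries were again below all others, by a narrow margin (at most 3.678%, against 3.680% in the lowest vehicle library). Weighted by gene length, the share was 1.72% to 1.81% in MPTP + PE, 1.84% to 1.94% in MPTP and 1.80% to 1.97% in vehicle libraries, so that MPTP + PE overlapped with vehicle and not with MPTP. All 3 markers of endothelium, the lining of blood vessels, were also lower in MPTP + PE than in MPTP without overlap, with a sum of 19.5 to 23.9 FPKM in MPTP + PE, 28.1 to 28.2 in MPTP and 23.2 to 26.1 in vehicle libraries. Of all genes tested, 5.36% were lower without overlap in this comparison. None of the 3 markers passed (limma adjusted p = 0.9999 for MPTP + PE over MPTP). Log2 fold changes were also negative for 6 of 6 choroid plexus (described below), 3 of 3 GABAergic neuron and 2 of 2 muscle markers. They were positive for 4 of 4 general neuronal markers and mixed in the other marker lists. The part of any marker in the mt-Nd6 values was not tested. mt-Nd6 and mt-Nd5 overlap by 14 bases on opposite strands, and without strand the reads of that stretch cannot be assigned.

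Among the complex I subunits on the plus strand, mt-Nd4l had 4649, 4652 and 4556 FPKM in MPTP + PE, 4848, 3891 and 4102 FPKM in MPTP and 4303, 4375 and 4238 FPKM in vehicle libraries. The MPTP libraries lay on both sides of the running group. mt-Nd5, the longest of the 13, had 3677, 3932 and 3704 FPKM in MPTP + PE, 4054, 3411 and 4140 FPKM in MPTP and 3876, 3817 and 3756 FPKM in vehicle libraries, with overlap in every pair of groups.

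The comparison of MPTP + PE with vehicle shares its libraries with the other 2 comparisons, so their values are not independent. No gene passed here either: 0 of 37 had an adjusted p under 0.05 (0% of all genes tested), with 0.753 the lowest. Positive log2 fold changes were found for 30 of 37 genes, with a median of 0.12, against 44.7% and a median of −0.02 over all genes. The groups did not overlap for 13 of the 37, all higher in MPTP + PE, against 15.6% of all genes (6.38% higher and 9.2% lower). At an unadjusted p under 0.05 there were 5 genes (mt-Td, mt-Atp8, mt-Tg, mt-Nd3 and mt-Tp), against 6.54% of all genes (3.12% higher and 3.43% lower). After rescaling to the same FPKM sum, 4 genes lay apart and higher (mt-Td, mt-Tg, mt-Nd3 and mt-Tp, the proline tRNA) and 1 apart and lower (mt-Nd5), against 2.84% of all genes higher and 16.6% lower.

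The 13 genes apart as deposited were 8 mRNAs (mt-Nd1, mt-Co1, mt-Co2, mt-Atp8, mt-Co3, mt-Nd3, mt-Nd4l and mt-Nd4), mt-Rnr2 and 4 tRNAs (mt-Td, mt-Tk, mt-Tg and mt-Tp). mt-Nd3, which forms part of the hinge between the arms of complex I, had 1573, 1249 and 1303 FPKM in MPTP + PE and 1123, 1092 and 1060 FPKM in vehicle libraries. The log2 fold change was 0.33 (SE 0.13, limma adjusted p = 0.753). mt-Tg had 84.7, 68.6 and 81.2 FPKM in MPTP + PE libraries and the vehicle values given above, a log2 fold change of 0.58 (SE 0.14, limma adjusted p = 0.753).

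mt-Td had 44.2, 40.0 and 41.7 FPKM in MPTP + PE and 32.1, 35.5 and 33.7 FPKM in vehicle libraries, a log2 fold change of 0.31 (SE 0.10, limma adjusted p = 0.753). mt-Tp had 241, 227 and 235 FPKM in MPTP + PE and 190, 208 and 190 FPKM in vehicle libraries, a log2 fold change of 0.26 (SE 0.11, limma adjusted p = 0.753). The values of each pair did not overlap. mt-Td rested on an estimated 50.3 to 78.7 fragments in a library and mt-Tp on 285 to 424, fewer than any mRNA. The part of counting error in their spread was not tested.

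mt-Co1 had 20343, 20054 and 17913 FPKM in MPTP + PE libraries, above each vehicle library, with a log2 fold change of 0.15 (SE 0.09). mt-Atp8 (0.24, SE 0.10), mt-Co3 (0.24, SE 0.14), mt-Tk (lysine, 0.34, SE 0.15), mt-Co2 (0.12, SE 0.09), mt-Nd1 (0.11, SE 0.09), mt-Nd4l (0.10, SE 0.10) and mt-Nd4 (0.10, SE 0.08) had log2 fold changes of the same sign. Without MPTP + PE 1 mt-Atp8 was at 0.15 and mt-Co3 at 0.13, and without vehicle 1 mt-Tk was at 0.19. Over the 9 libraries, 9 of the 13 mRNAs had their lowest value in a vehicle library, and 8 had their highest in MPTP 2 or MPTP + PE 1, the libraries low in mt-Atp6.

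**Figure D5:**
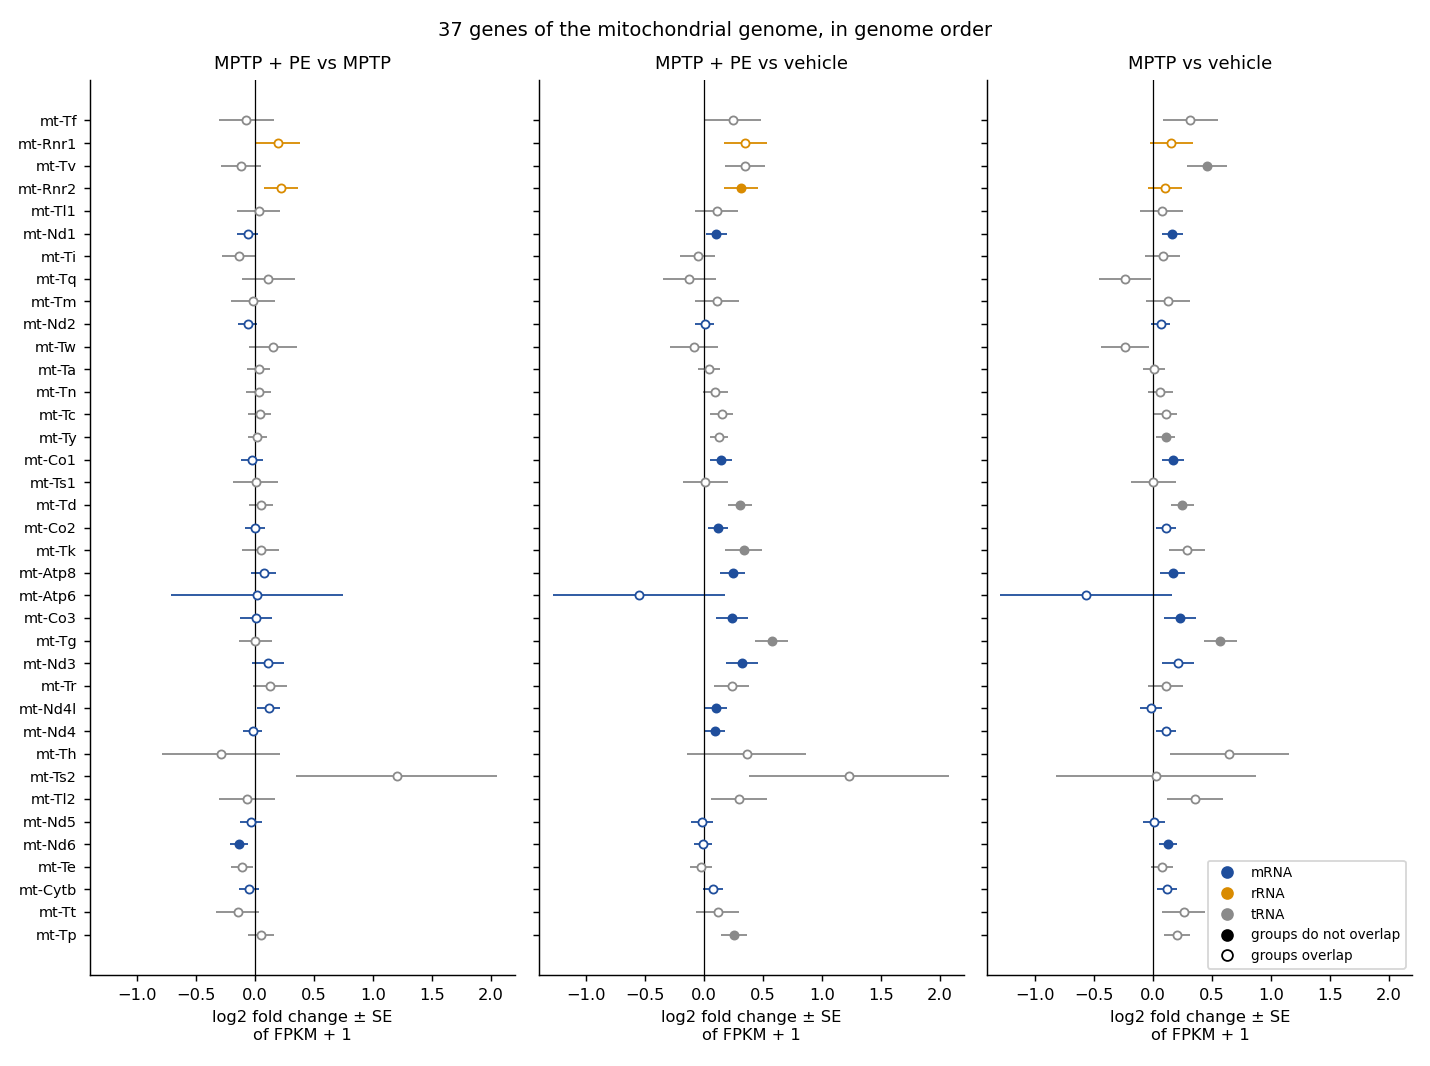
log2 fold change of FPKM + 1 with its SE for each of the 37 genes in genome order, in the 3 comparisons, from a limma fit of all 9 libraries. Filled points are genes whose groups do not overlap (1, 13 and 9 of the 37 from left to right), the widest bars belong to mt-Ts2, mt-Atp6 and mt-Th, and no gene passed an adjusted p of 0.05.

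By complex, the 7 subunits of complex I summed to 31796 ± 1101 FPKM in MPTP + PE, 32437 ± 1411 in MPTP and 30290 ± 528 in vehicle libraries (SD, n = 3 each). The 3 subunits of complex IV summed to 34453 ± 2710 FPKM in MPTP + PE, 34738 ± 3279 in MPTP and 30719 ± 295 in vehicle libraries. mt-Cytb, alone for complex III, averaged 9053 ± 309 FPKM in MPTP + PE, 9361 ± 641 in MPTP and 8580 ± 208 in vehicle libraries. The 2 subunits of ATP synthase summed to 18450 ± 3015 FPKM in MPTP + PE, 17767 ± 4233 in MPTP and 17854 ± 1125 in vehicle libraries, with the 2 libraries low in mt-Atp6 at 15076 FPKM (MPTP + PE 1) and 12951 FPKM (MPTP 2). The 22 tRNAs made 4.602% ± 0.370 of mitochondrial FPKM in MPTP + PE, 4.61% ± 0.121 in MPTP and 4.64% ± 0.334 in vehicle libraries, with an exact permutation p of 0.9 for MPTP + PE against vehicle and of 1 for both other pairs. The spread of the tRNA share within groups exceeded the differences between them.

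Nuclear genes complete the same complexes, and none of those listed passed the test in any comparison. All 36 nuclear complex I subunits had a positive log2 fold change for MPTP over vehicle (median 0.14), and all 36 for MPTP + PE over vehicle (median 0.21). The same held for 9 of 9 subunits of complex III (medians 0.15 for MPTP and 0.25 for MPTP + PE over vehicle), 13 of 14 of complex IV (0.19 and 0.28) and 16 of 16 of ATP synthase (0.16 and 0.24). Of the 4 subunits of complex II, which has no mitochondrial gene, 4 and 3 were positive in these comparisons (0.10 and 0.17). After rescaling to the same FPKM sum outside the mitochondrial genome, 30 of 36 complex I subunits remained positive for MPTP over vehicle (median 0.08) and 33 of 36 for MPTP + PE over vehicle (median 0.13), beside medians of −0.05 and −0.08 over all genes. At an unadjusted p under 0.05 for MPTP + PE over vehicle there were 11 of 36 genes of complex I, 1 of 4 of complex II, 4 of 9 of complex III, 4 of 14 of complex IV and 4 of 16 of ATP synthase, all higher, against 3.12% of all genes higher. For MPTP over vehicle these counts were 0 of 36, 0 of 4, 0 of 9, 0 of 14 and 2 of 16. Of all genes, 2.61% were higher there. For MPTP + PE over MPTP, 31 of 36, 3 of 4, 7 of 9, 12 of 14 and 14 of 16 were positive, against 45.7% of all genes. Their medians were 0.05, 0.06, 0.12, 0.07 and 0.08, and 1 of the 36 complex I genes had an unadjusted limma p under 0.05.

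Ndufb3, a small complex I subunit, averaged 79.9 ± 1.36 FPKM in MPTP + PE, 77.1 ± 5.35 in MPTP and 68.7 ± 1.84 in vehicle libraries (limma adjusted p = 0.991 for MPTP over vehicle). Ndufa11, another, averaged 24.6 ± 2.19 FPKM in MPTP + PE, 24.1 ± 1.42 in MPTP and 20.96 ± 1.37 in vehicle libraries. Uqcr10 and Uqcrh of complex III had log2 fold changes of 0.24 (SE 0.15) and 0.21 (SE 0.15) for MPTP over vehicle, and Ndufa4 and Cox4i1 of complex IV 0.32 (SE 0.14) and 0.24 (SE 0.12). Sdhd and Sdhb of complex II had 0.14 (SE 0.09) and 0.13 (SE 0.10). Atp5o, which joins the catalytic head of ATP synthase to its stalk, averaged 74.5 ± 10.8 FPKM in MPTP + PE, 73.1 ± 6.16 in MPTP and 59.1 ± 1.41 in vehicle libraries (SD, n = 3 each). Atp5j2, a membrane subunit, averaged 29.6 ± 6.08 FPKM in MPTP + PE, 26.5 ± 6.46 in MPTP and 18.4 ± 2.18 in vehicle libraries. None of these genes passed, at an adjusted p of 0.991 for MPTP over vehicle.

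The genes that make and read mitochondrial RNA gave no call either. Of 81 mitochondrial ribosomal protein genes, 69 were positive for MPTP over vehicle (median 0.10), against 48.1% of all genes. For MPTP + PE over vehicle 67 were positive (median 0.13), against 44.7% of all genes. At an unadjusted limma p under 0.05 there were 2 for MPTP over vehicle, all higher, against 2.61% of all genes higher. For MPTP + PE over vehicle there were 9, all higher, against 3.12% of all genes higher. Mrps6, of the small subunit, averaged 9.87 ± 0.794 FPKM in MPTP + PE, 10.1 ± 0.346 in MPTP and 7.95 ± 0.267 in vehicle libraries (limma adjusted p = 0.812 for MPTP over vehicle). Mrpl20, of the large subunit, averaged 23.3 ± 2.59 FPKM in MPTP + PE, 22.1 ± 4.13 in MPTP and 15.9 ± 1.58 in vehicle libraries (limma adjusted p = 0.991 for MPTP over vehicle). Genes for transcription and replication of mitochondrial DNA were positive in 10 of 20 (median 0.00), with Tfam, which packages the DNA and starts transcription, at 7.56 ± 0.522 FPKM in MPTP + PE, 7.67 ± 0.480 in MPTP and 6.96 ± 0.371 in vehicle libraries. Mgme1, a nuclease of replication, averaged 2.18 ± 0.151 FPKM in MPTP + PE, 2.04 ± 0.221 in MPTP and 1.68 ± 0.118 in vehicle libraries.

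RNA processing genes were positive in 22 of 33 for MPTP over vehicle (median 0.05), with Fastkd3 at 0.16 (SE 0.10) and Fastkd1 at −0.15 (SE 0.10). Translation factors and tRNA ligases were positive in 11 of 32 (median −0.02), with the threonine ligase Tars2 at −0.25 (SE 0.08) and the phenylalanine ligase Fars2 at 0.22 (SE 0.09). Of these 32, 5 had an unadjusted limma p under 0.05 (2 higher and 3 lower), against 2.61% of all genes higher and 1.48% lower. Regulators of biogenesis were positive in 4 of 13 (median −0.02), with Sirt1 at −0.19 (SE 0.13) and Ppargc1b at −0.24 (SE 0.17). Markers of mitochondrial mass were positive in 15 of 18 (median 0.04), with the import channel gene Timm23 at 0.22 (SE 0.15) and the ADP/ATP carrier gene Slc25a4 at 0.16 (SE 0.13). The stress response list was positive in 12 of 16 tested members (median 0.05), with Atf4 at 0.39 (SE 0.20) and Dnaja3 at −0.15 (SE 0.12). All 5 lists had 0 genes at an adjusted p under 0.05. After rescaling to the same FPKM sum outside the mitochondrial genome, the positive genes for MPTP over vehicle were 17 of 33 for RNA processing, 4 of 32 for translation factors and ligases, 2 of 13 for biogenesis, 7 of 18 for mitochondrial mass (median −0.02) and 6 of 16 for the stress response (median −0.02). The majority thus turned for mass and stress response, while the median over all genes moved from −0.01 to −0.05 with the same rescaling. Both lists kept medians above that of all genes. On that scale 57 of 81 ribosomal protein genes and 5 of 20 genes of transcription and replication were positive.

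Markers of the choroid plexus, an epithelium outside the substantia nigra, were highest in the MPTP group. All 6 listed markers were detected, and their summed FPKM was 20.8 to 940 in MPTP + PE, 946 to 2051 in MPTP and 36.6 to 338 in vehicle libraries. Their part in the mitochondrial values was not tested.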

How the data were processed

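FPKM per gene were used as the authors deposited them. Per the labels' protocols, mRNA was pulled out of total RNA with magnetic beads before fragmentation and NovaSeq6000 sequencing. Per the submitters' processing notes, bcl2fastq, HTSeq, DESeq2 (no versions) and the build GRCm38 were used. The aligner, the tool behind the FPKM, the strandedness and the treatment of fragments with several matches were not given in the sources used here. FPKM divide by each library's total and by gene length, so a change of a large gene moves all others, and the 37 genes take a large part of the sum.

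Symbols, coordinates and sequences came from GENCODE M21 on GRCm38 (55154 of 55335 genes matched). Nuclear copies were annotated transcripts that blastn matched to a mitochondrial gene (95% identity, 200 bases). The main test was limma (trended prior variance) on log2(FPKM + 1), over 15997 genes averaging 0.5 FPKM or more, all 9 libraries in 1 fit, two-sided, Benjamini-Hochberg, threshold 0.05. Fold changes on this scale understate those of low genes. Shares per library were tested by exact permutation. The test was tried on simulated data. Depth was estimated from the steps of low values in genes with 1 transcript of at least 1000 bases, where 53.4% to 56.6% lay within 0.1 of a whole fragment (20% by chance), too few to recover counts.

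All 37 genes are named, with the copies and, from each list of nuclear partner genes, the 2 with the smallest p for MPTP over vehicle. The genes and lists were chosen with earlier results of these data known. MPTP and vehicle libraries of equal number deviated together from their group means (correlations 0.25, 0.33 and 0.11), which pairs them by the rule used here (each over 0.1), while pairs with MPTP + PE libraries did not (−0.34 to 0.25), so a model blocked on that number was run beside the main one. Alternatives changed the pseudocount, filter, scaling, variance model, weights, libraries and, after the data were seen, the treatment of nuclear copies and mt-Atp6. Software was R 4.3.3, limma 3.58.1, Python 3.11.15, pandas 2.3.3, numpy 2.4.6, matplotlib 3.10.9 and BLAST+ 2.17.0.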

Additional observations from a re-analysis of the deposited data

How the results depend on the processing

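In limma, 0 of 37 mitochondrial genes passed in each of the 3 comparisons under every alternative run, the replicate block included (0, 0 and 0), and the block changed no call on a mitochondrial gene (over all genes it gave 3 calls for MPTP over vehicle, against 2 without it). Under the replicate block the share of FPKM from the mitochondrial genome differed by −0.0640 points for MPTP + PE minus MPTP (exact p = 1), 0.617 for MPTP + PE minus vehicle (0.5) and 0.681 for MPTP minus vehicle (0.75), with 0.25 the smallest p possible. Over all alternatives, 41 values turned their direction and 820 did not. The 820 include the counts of genes that passed, which have no direction. They also include fold changes that a setting could not move, as with a changed filter, the replicate block or a library left out of the third group. The tally is therefore no measure of stability. None of the 41 had passed a test, and no cause was tested beyond the change of setting itself.

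Quantile normalization gave log2 fold changes of −0.028 (mt-Nd1), −0.0095 (mt-Ty) and −0.037 (mt-Atp8) for MPTP over vehicle, and −0.10 (mt-Nd1) for MPTP + PE over vehicle. It sets genes of equal rank to equal values, so for the mRNAs, which hold the top ranks in every library, it removes most differences by construction. Leaving out 1 library at a time, that of mt-Atp6 ranged from −0.97 to 0.19 for MPTP over vehicle, from −0.74 to 0.77 for MPTP + PE over MPTP (−0.53 with array weights) and from −0.94 to 0.20 for MPTP + PE over vehicle. Without both libraries low in mt-Atp6 it was 0.19 for MPTP and 0.20 for MPTP + PE over vehicle, and with the nuclear copy added it was 0.022 for MPTP + PE over vehicle. The share of mt-Atp6 in mt-Atp6 plus mt-Atp8 ranged from −10.7 to 10.7 points for MPTP + PE minus MPTP, −15.8 to 0.840 for MPTP + PE minus vehicle and −15.1 to 0.526 for MPTP minus vehicle. Without both libraries these differences were 0.313, 0.840 and 0.526 points in that order of comparisons.

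The mitochondrial share for MPTP + PE minus MPTP ranged from −0.473 to 0.399 points with 1 library left out, and was 0.0581 with the nuclear copies counted in. The rRNA share for MPTP minus vehicle ranged from −0.246 to 0.432 points and was −0.0283 without mt-Atp6 in the sum. The tRNA share ranged from −0.201 to 0.167 points for MPTP + PE minus MPTP, −0.234 to 0.154 for MPTP + PE minus vehicle and −0.132 to 0.159 for MPTP minus vehicle. For MPTP + PE minus MPTP it was 0.00255 when weighted by length and 0.00640 without mt-Atp6. The mt-Nd6 share for MPTP minus vehicle ranged from −0.0323 to 0.145 points and was −0.0274 without mt-Atp6. It stayed negative for MPTP + PE minus MPTP (−0.383 to −0.231) and minus vehicle (−0.337 to −0.160) with any 1 library left out.

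The settings that drop both low libraries, add nuclear copies or leave out mt-Atp6 were chosen after seeing the data. With 3 libraries a group and no counts, differences within the spread of single libraries could not be resolved, above all for tRNAs that rested on few fragments.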
